A study of Homo sapiens with 6 samples.

Results

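The enzymes described here build serine from a glycolytic intermediate and pass its carbon into the folate cycle. They were taken as every probe of the bead table whose platform annotation names PHGDH, PSAT1, PSPH, SHMT1, SHMT2, MTHFD1, MTHFD1L, MTHFD2, ALDH1L2 or ALDH18A1, which gave 14 of the 48803 probes, for 10 of the 18665 genes that the annotation names. The cells were A549, an established line from a human lung adenocarcinoma, and RNA was taken from control cells (3 arrays) and from cells exposed for 24 h to 160 µg/ml of a compound named only as DAMTC (3 arrays). What the controls received in its place was not stated in the labels. Triplicates are described as biological, but no separate cultures are named, and p-values therefore cover the spread among the 6 arrays, which may be technical.

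Serine synthesis branches off glycolysis at 3-phosphoglycerate, which PHGDH oxidises, PSAT1 transaminates and PSPH dephosphorylates to serine. SHMT2 in mitochondria and SHMT1 in the cytosol then split serine into glycine and a one-carbon unit carried on tetrahydrofolate. In mitochondria MTHFD2 and MTHFD1L oxidise and release that unit as formate, and in the cytosol MTHFD1 takes formate up again for purine and thymidylate synthesis. ALDH1L2 burns the mitochondrial unit to carbon dioxide, and ALDH18A1 makes the shared precursor of proline and ornithine. Several of these genes are known targets of ATF4, which cells raise when amino acids run short, and lung adenocarcinomas differ widely in how much serine they make themselves.

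With DAMTC, the 3 enzymes of serine synthesis fell together, by 2.78-fold for PHGDH, 3.16-fold for PSAT1, and 2.97-fold and 4.09-fold on the 2 probes of PSPH. MTHFD1L, the mitochondrial formate-releasing enzyme, fell 2.29-fold. MTHFD2, which acts just before it, differed by 0.03 ± 0.32 (SE, n = 3 per group) on the log2 scale, and no probe of SHMT1, SHMT2, MTHFD1 or ALDH18A1 passed the test. Of the 12 member probes that could be tested, 5 were lower and 0 higher at an adjusted p under 0.05 in limma, against 11.6% lower and 11.7% higher over all 17009 probes tested. The 5 probes stand for 4 of 9 tested genes, and the members were chosen with earlier results of these data known. The groups did not overlap for the same 5 member probes, against 40.1% of all tested probes. The median log2 difference was -0.43 over the 12 probes and -0.01 over all tested probes. The 2 remaining probes, a second PSAT1 probe and the ALDH1L2 probe, were not detected on any array and were not tested.

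Between 16329 and 17835 probes were detected per array, with a median of 36 to 38 beads behind each value, and member probes that were tested had 30 to 62 beads and a bead standard error of 2.20% to 5.73% of their intensity. Control replicate 1 stood apart, with correlations of 0.931 and 0.947 to the other controls, while those 2 correlated at 0.976 and the DAMTC arrays at 0.975 to 0.982 with each other. All 6 arrays lay on 1 BeadChip with the controls in its first positions, and the effect of position cannot be told apart from that of DAMTC. A lower level per array can mean fewer cells that express a gene or less RNA per cell, which bulk RNA cannot tell apart. All 6 lung epithelial marker genes (KRT7, KRT8, KRT18, KRT19, EPCAM and CDH1) were detected. Of their 7 tested probes only that of CDH1 passed, 14.3% against 23.4% of all tested probes, and it fell (-1.64 ± 0.42, adjusted p = 0.0230 in limma). The tested probes of KRT8, KRT18 and KRT19 differed by 0.62, 0.53 and 0.85 on the log2 scale. That of KRT7 differed by -0.43 and those of EPCAM by -0.19 and -0.63. Of the markers of immune, endothelial and fibroblast cells, 6 of 11 were not detected on any array. Of these other markers, the summed level of the 4 immune genes ran from 401 to 505 in controls and from 329 to 388 with DAMTC, that of the 3 endothelial genes from 98.9 to 109 and from 105 to 142, and that of the 4 fibroblast genes from 246 to 258 and from 219 to 251 (linear scale). These sums also count probes at the background, since only 2 of 9 immune, 1 of 3 endothelial and 0 of 8 fibroblast probes could be tested. Those of CD14, CD79A and PECAM1 differed by -0.80, -0.01 and 0.63 on the log2 scale. None of them passed (adjusted p = 0.102, 0.986 and 0.126 in limma). The part of these markers in the results was not tested.

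PHGDH (chr1:119711934-119744215, GRCh38.p14) catalyses the first and committed step of the serine route. Its bead intensity before any correction was 3913, 6594 and 7297 in control replicates 1 to 3 and 1739, 1259 and 2996 in DAMTC replicates 1 to 3. After background correction and quantile normalization the log2 levels were 11.94, 12.64 and 12.56 in controls and 10.94, 10.20 and 11.57 with DAMTC. Every DAMTC array lay below every control array, and the smallest gap was between DAMTC replicate 3 and control replicate 1. The groups failed to overlap downwards in this way for 20.1% of all probes tested. The log2 difference was -1.48 ± 0.37 (SE, n = 3 per group, adjusted p = 0.0215 in limma, 95% interval -2.32 to -0.63). Leaving out 1 array gave differences from -1.81 to -1.12, and the call was lost without control replicate 2 (adjusted p = 0.0553) or 3 (0.0693) and without DAMTC replicate 1 (0.0664) or 2 (0.0754).

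PSAT1 (chr9:78297125-78330093), the aminotransferase that follows PHGDH and draws its nitrogen from glutamate, had log2 levels of 13.57, 12.51 and 12.83 in controls and 11.28, 11.15 and 11.49 with DAMTC. The DAMTC arrays had an SD of 0.17, and control replicate 1, the lowest control for PHGDH, was here the highest. The log2 difference was -1.66 ± 0.31 (adjusted p = 0.00567 in limma, interval -2.36 to -0.96), and it passed in all 16 alternatives run, with adjusted p up to 0.0305. The second PSAT1 probe, annotated to another transcript variant, read 4.54 to 4.93 over the 6 arrays, which is within the background.

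PSPH (chr7:56011064-56051444), the phosphatase that releases free serine, was measured by a pair of probes. The brighter probe had log2 levels of 9.51, 8.45 and 9.43 in controls and 7.11, 7.89 and 7.66 with DAMTC, a difference of -1.57 ± 0.35 (adjusted p = 0.0127 in limma). The dimmer probe had 7.92, 8.16 and 9.01 in controls and 6.22, 6.42 and 6.36 with DAMTC, a difference of -2.03 ± 0.31 (adjusted p = 0.00240). On both probes the groups were separate, the DAMTC arrays being closer together on the dimmer one, with SDs of 0.11 and 0.40. Leaving out DAMTC replicate 1 ended the call of the brighter probe (adjusted p = 0.0552), and the dimmer one passed in all 15 alternatives in which it was tested. The size of its fall depended on the background: without background correction the dimmer probe differed by -1.18. RefSeq names 4 pseudogenes of PSAT1 and 1 of PSPH, and whether the probes also bind their transcripts was not tested.

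**Figure D1:**
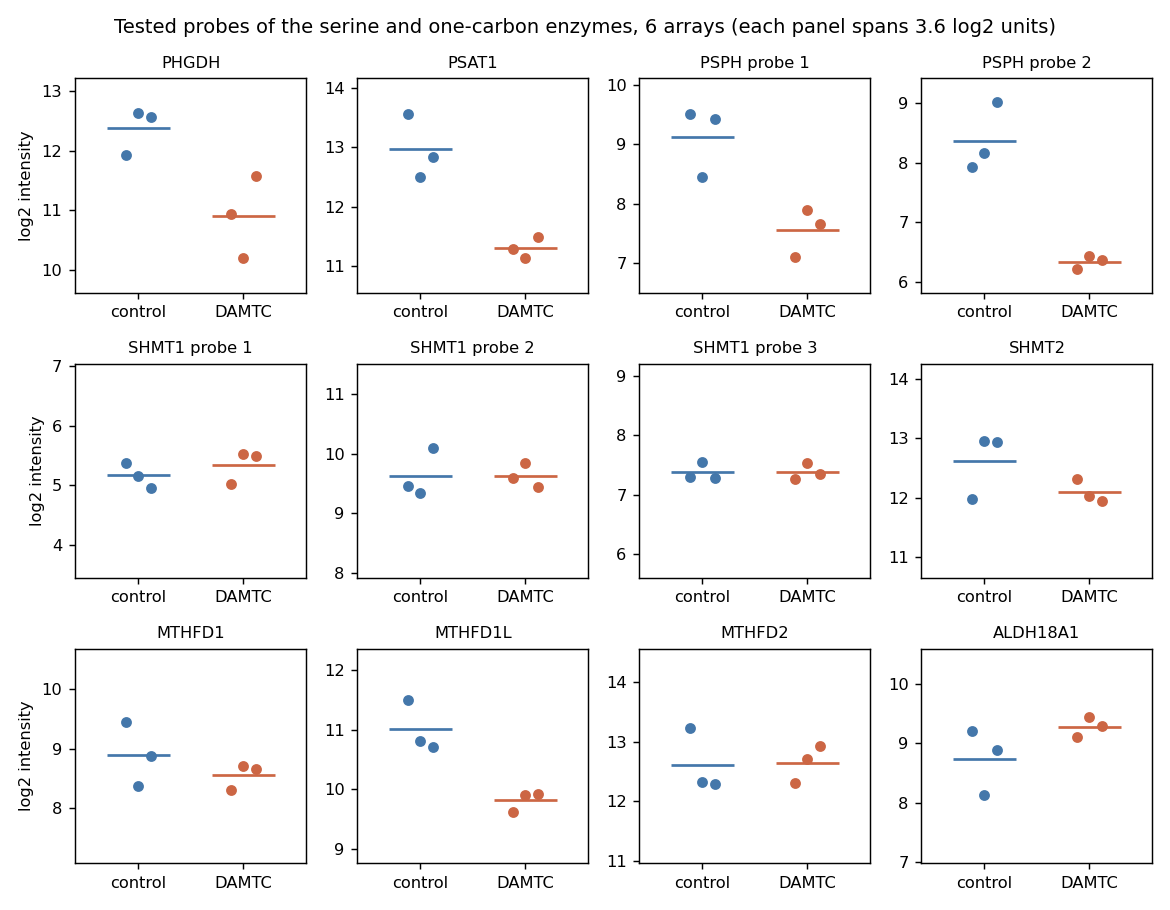
Log2 intensity of the 12 tested member probes on the 6 arrays, 1 panel per probe, with controls in blue, DAMTC in orange, replicates 1 to 3 from left to right and a bar at each group mean. PHGDH, PSAT1, both PSPH probes and MTHFD1L have every DAMTC point below every control point, and the groups overlap in the other 7 panels.

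In the mitochondrial branch, MTHFD1L (chr6:150865702-151101887), the formate-producing synthetase, had log2 levels of 11.51, 10.81 and 10.72 in controls and 9.63, 9.91 and 9.92 with DAMTC. Its groups were separate, and the difference was -1.19 ± 0.28 (adjusted p = 0.0157 in limma, interval -1.83 to -0.56). Leaving out DAMTC replicate 1, 2 or 3 ended the call (adjusted p = 0.0656, 0.0504 and 0.0512), while the difference stayed between -0.95 and -1.34 in the 6 fits that left out 1 array.

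MTHFD2 (chr2:74198615-74217565), the dehydrogenase and cyclohydrolase that precedes MTHFD1L and is scarce in most resting adult tissues, read 13.23, 12.32 and 12.29 in controls and 12.31, 12.71 and 12.92 with DAMTC. Control replicate 1 was the highest of the 6 arrays and the other controls were among the lowest, so the groups overlapped. The adjusted p was 0.955 in limma, with an interval from -0.70 to 0.76, which still allows a change of either sign. Without control replicate 1 the difference was 0.34, and without control replicate 3 it was -0.13. RefSeq names 7 pseudogenes of MTHFD2, whose part in this probe's signal was not tested.

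MTHFD1L and MTHFD2, which act in succession, were compared within arrays, a pair chosen after their values were seen. The log2 level of MTHFD1L minus that of MTHFD2 was -1.73, -1.51 and -1.57 in controls and -2.69, -2.80 and -3.00 with DAMTC. The groups were separate on this measure with SDs of 0.11 and 0.16, although each gene alone varied by 0.43 and 0.54 (SD) among the controls. The difference of the differences was -1.23 and the test did not pass (exact two-sided permutation p = 0.1, the smallest that 3 against 3 arrays allow, and 0.15 adjusted over the 3 gene pairs compared).

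SHMT2 (chr12:57229711-57234935) had log2 levels of 11.97, 12.96 and 12.93 in controls and 12.31, 12.02 and 11.95 with DAMTC. Control replicate 1 lay with the DAMTC arrays and the other controls above them. The difference of -0.53 ± 0.31 did not pass (adjusted p = 0.270 in limma, interval -1.24 to 0.19), and it was -0.85 with adjusted p = 0.0222 without control replicate 1. ALDH1L2, the other mitochondrial member, read between 4.63 and 5.04 on the 6 arrays and was detected on none.

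In the cytosol, SHMT1 (chr17:18327873-18363550) was covered by 3 probes with log2 differences of 0.18 ± 0.25, 0.00 ± 0.28 and 0.00 ± 0.23. The brightest of them read 9.45, 9.34 and 10.09 in controls and 9.60, 9.84 and 9.44 with DAMTC. Adjusted p ranged from 0.664 to 0.999 over the 3 probes, and the interval of probe 3, the most precise, ran from -0.52 to 0.52. Probe 1 was detected on 3 of 6 arrays only. SHMT2 minus SHMT1 within arrays differed by -0.53 between the groups, which overlapped (exact permutation p = 0.2, adjusted 0.2).

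MTHFD1 (chr14:64388353-64460025), the enzyme that joins several folate activities in a single cytosolic protein, read 9.45, 8.37 and 8.88 in controls and 8.31, 8.71 and 8.66 with DAMTC. The DAMTC values lay inside or just below the span of the controls, and the difference was -0.34 ± 0.31 (adjusted p = 0.481 in limma). It ranged from -0.0669 without control replicate 1 to -0.61 without control replicate 2. ALDH18A1 (chr10:95605941-95656711), whose product feeds proline and ornithine, read 9.21, 8.14 and 8.89 in controls and 9.11, 9.44 and 9.29 with DAMTC. Its difference of 0.53 ± 0.31 did not pass (adjusted p = 0.255) and was 0.23 without control replicate 2 and 0.21 with median scaling, and the groups overlapped because of control replicate 1.

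**Figure D2:**
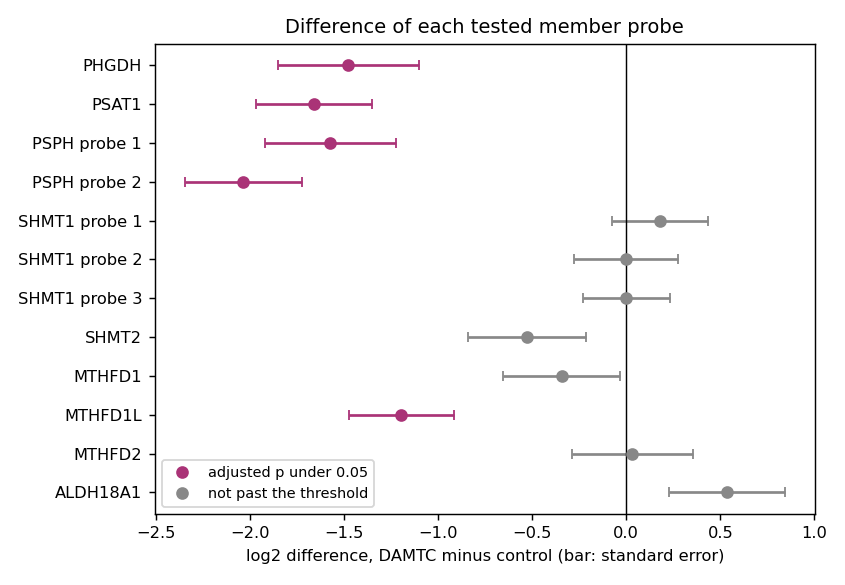
Log2 difference, DAMTC minus control, of each tested member probe with its standard error as the bar, purple where the adjusted p was under 0.05. The 4 probes of serine synthesis genes lie between -2.03 and -1.48 and MTHFD1L at -1.19, and the other 7 probes lie between -0.53 and 0.53.

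The windows of 250 bases before the start sites were read for the members that RefSeq's promoter table holds (7 of 10, GRCh38.p14, the first listed start of each gene). They are shown for the first enzymes of serine synthesis, which fell, and for MTHFD1L and MTHFD2, neighbours in the pathway of which the former fell and the latter did not pass the test, and capitals mark matches to TGATGNAA, the core of the C/EBP-ATF response element through which ATF4 acts, or to CACGTG, the E-box.
PHGDH (chr1:119711684-119711933, + strand): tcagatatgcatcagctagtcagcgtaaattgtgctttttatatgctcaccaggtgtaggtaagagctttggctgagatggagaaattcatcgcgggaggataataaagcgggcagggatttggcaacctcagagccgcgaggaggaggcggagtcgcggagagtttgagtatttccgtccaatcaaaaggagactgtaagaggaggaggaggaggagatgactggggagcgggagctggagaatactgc
PSAT1 (chr9:78296875-78297124, + strand): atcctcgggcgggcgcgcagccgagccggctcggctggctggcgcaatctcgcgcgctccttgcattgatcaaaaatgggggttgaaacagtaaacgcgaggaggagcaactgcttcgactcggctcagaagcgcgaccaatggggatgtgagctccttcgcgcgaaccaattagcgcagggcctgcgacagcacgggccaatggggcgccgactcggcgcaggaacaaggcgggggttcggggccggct
MTHFD1L (chr6:150866236-150866485, + strand): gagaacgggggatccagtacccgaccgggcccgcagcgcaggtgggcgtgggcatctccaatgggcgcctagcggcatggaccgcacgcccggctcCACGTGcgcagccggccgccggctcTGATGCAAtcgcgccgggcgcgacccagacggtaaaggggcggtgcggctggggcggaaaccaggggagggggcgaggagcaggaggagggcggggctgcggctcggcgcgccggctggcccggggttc
MTHFD2 (chr2:74198365-74198614, + strand): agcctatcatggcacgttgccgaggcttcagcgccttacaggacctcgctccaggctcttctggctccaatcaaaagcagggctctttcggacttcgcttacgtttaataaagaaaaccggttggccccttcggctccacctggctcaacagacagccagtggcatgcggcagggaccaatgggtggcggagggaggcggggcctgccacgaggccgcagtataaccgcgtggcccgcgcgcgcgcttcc

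Both strands were searched for TGATGNAA, CACGTG, TGACGTNA (a cyclic AMP response element with a free base) and TGACNNNGC (the antioxidant response element core). The first stood in 1 of the 7 member windows, that of MTHFD1L, at -129 to -122 from the start, and in 3.19% of the 27305 windows of the table. CACGTG stood in the windows of MTHFD1L, MTHFD1 and ALDH18A1 (6.49% of all windows), TGACGTNA in that of ALDH18A1 (2.82%), and TGACNNNGC in none of the 7 (11.0%). RefSeq lists 4 starts for MTHFD1L, and TGATGNAA was within 250 bases before 2 of them. Those 2 windows overlap, and the match in them is the same one. No motif searched overlapped another in these windows, and a window without a match says only that those letters are not in it.

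Around the members, 67 further genes of folate, methionine, purine, proline and serine metabolism and of the ATF4 arm were listed, of which 59 were on the array under 1 symbol with 97 probes. Of the 63 probes that could be tested, 9 were higher and 9 lower with DAMTC, together 28.6% against 23.4% of all tested probes (percentage called in either direction), so as a whole these genes were called about as often as the rest of the array. Their median log2 difference was -0.10. The folate genes of mitochondria and of the glycine cleavage system had 0 of 7 tested probes past the threshold in limma. Among them GLDC, the decarboxylase of glycine cleavage, differed by 0.91 ± 0.48 (adjusted p = 0.215), with controls spread by 1.11 (SD) and DAMTC arrays by 0.05. Without control replicate 3 GLDC differed by 1.45 and passed (adjusted p = 0.0379), and without control replicate 2 by 0.33 (0.554).

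The transsulfuration pair, which turns homocysteine and serine into cysteine, moved in opposite directions. CBS, the enzyme that condenses serine with homocysteine, read 11.19, 12.28 and 11.92 in controls and 8.60, 7.59 and 10.28 with DAMTC. It fell 7.85-fold (-2.97 ± 0.61, adjusted p = 0.00860 in limma), the largest difference among the listed genes, with DAMTC arrays that differed among themselves by 1.36 (SD). Without DAMTC replicate 3 the difference was -3.70, and without DAMTC replicate 2 it was -2.36. The call was lost without a detection filter (adjusted p = 0.0527). CTH, which cleaves the product of CBS to cysteine, read 7.38, 6.96 and 7.11 in controls and 8.93, 9.03 and 9.23 with DAMTC on its brightest probe.

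CTH therefore had all DAMTC arrays above all controls and rose 3.77-fold (1.92 ± 0.24, adjusted p = 9.62e-04 in limma). Another CTH probe rose 3.48-fold (1.80 ± 0.29, adjusted p = 0.00302), and the dimmest one differed by 0.71 ± 0.31 (adjusted p = 0.139). CBS minus CTH within arrays was 3.81, 5.32 and 4.81 in controls and -0.34, -1.44 and 1.04 with DAMTC. The pair was chosen after both genes were seen to separate. Its exact two-sided permutation p was 0.1 (0.15 adjusted), again the smallest possible, so that test decides nothing either. No other probe of the methionine cycle passed.

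Purine synthesis, the main cytosolic use of formate, was split. PPAT, which commits phosphoribosyl pyrophosphate to purines, rose by 1.42 ± 0.43 (adjusted p = 0.0441 in limma) and PRPS2, which makes that substrate, by 0.85 ± 0.26 (adjusted p = 0.0438). The dimmer PRPS2 probe differed by 0.79 ± 0.28 and did not pass (adjusted p = 0.0733 in limma). PFAS, which adds a nitrogen from glutamine at a later step, fell 3.05-fold (-1.61 ± 0.27, adjusted p = 0.00351). GART, which includes a folate-dependent step of the route, fell by 1.03 on the log2 scale (SE 0.32, adjusted p = 0.0489), while another GART probe read 0.36 (adjusted p = 0.580). The calls of PPAT and GART were lost in 11 of 16 alternatives and that of PRPS2 in 9, whereas PFAS passed in all 16.

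Among folate genes outside mitochondria, SLC46A1, the proton-coupled folate transporter, read 5.41, 6.70 and 6.87 in controls and 4.86, 5.01 and 4.94 with DAMTC on the log2 scale. It was detected on all controls and on no DAMTC array. SLC46A1 thus entered the test only through the group in which it was high, and its size depended on the background, from -1.39 as reported to -0.53 without background correction, where it did not pass (adjusted p = 0.0727 in limma).

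OAT, the mitochondrial aminotransferase between ornithine and the proline precursor that ALDH18A1 makes, rose on both of its probes. The brighter read 10.94, 9.15 and 9.85 in controls and 11.53, 11.92 and 12.03 with DAMTC, and rose 3.59-fold (1.84 ± 0.42, adjusted p = 0.0142 in limma). The other rose 3.47-fold (1.80 ± 0.41, adjusted p = 0.0145). The brighter probe no longer passed when DAMTC replicate 2 (adjusted p = 0.0555) or 3 (0.0611) was left out, or with no detection filter (0.0612). No tested probe of PYCR1 or ALDH4A1 passed, and the PRODH probe was too dim to be tested. The tested PYCR1 probe differed by -1.04 ± 0.42 (adjusted p = 0.106 in limma), with overlapping groups, and those of ALDH4A1 by -0.35, 0.04 and 0.31.

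Of the genes that use or carry serine and glycine, SLC1A4, a transporter of serine and other small neutral amino acids, fell 2.91-fold (-1.54 ± 0.29, adjusted p = 0.00586 in limma). SRR, which converts L-serine to its D-form, fell 2.64-fold (-1.40 ± 0.31, adjusted p = 0.0126, and 0.0551 without DAMTC replicate 1). GCAT, a mitochondrial ligase that makes glycine from a threonine product, rose 3.51-fold (1.81 ± 0.37, adjusted p = 0.00913). GCAT was detected on 2 of 3 controls and on all DAMTC arrays. The sizes of these differences depended on the background: without its correction SLC1A4 differed by -1.03, SRR by -0.61 and GCAT by 0.89, each still past the threshold.

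In the ATF4 arm the listed genes did not move one way. TRIB3, an ATF4 target, fell (-2.57 ± 0.24, adjusted p = 3.20e-04 in limma), whereas EIF2AK3, the kinase PERK, rose by 1.14 ± 0.33 (adjusted p = 0.0345), a call lost in 9 of 16 alternatives. For ATF4 itself the brighter probe read 14.40, 14.74 and 14.28 in controls and 14.55, 14.73 and 14.80 with DAMTC, a difference of 0.22 ± 0.24 (adjusted p = 0.567). The dimmer ATF4 probe rose by 1.15 ± 0.28 (adjusted p = 0.0193), and the remaining one was not detected on any array.

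**Figure D3:**
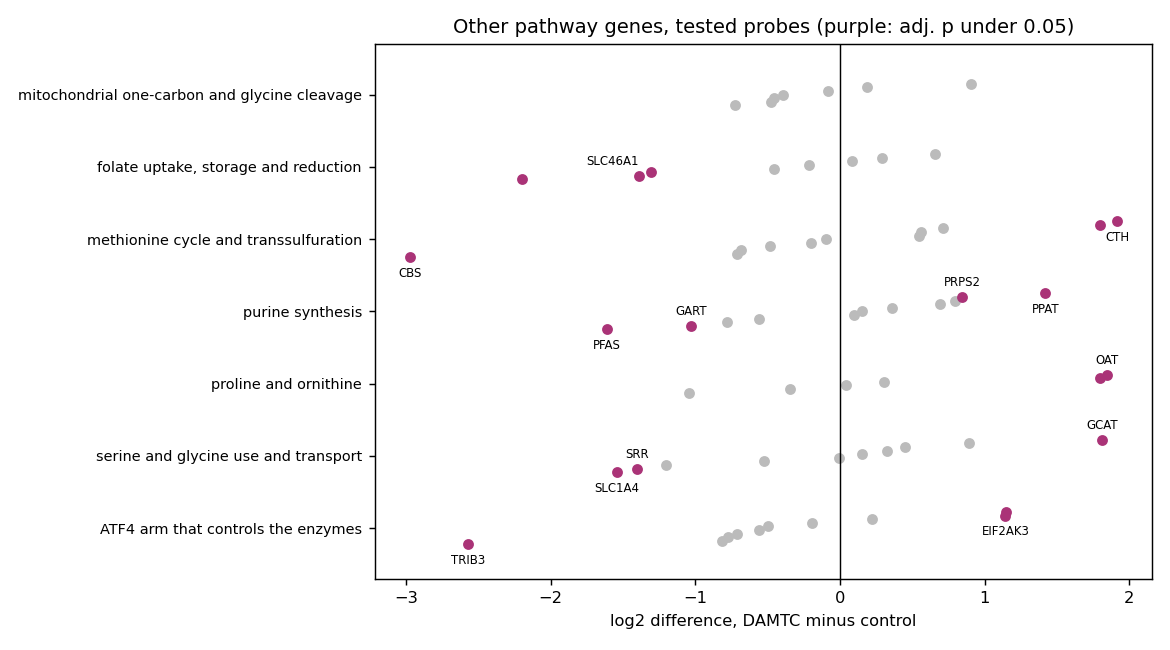
Log2 difference, DAMTC minus control, of the 63 tested probes of the other listed genes by group, 1 point per probe, purple where the adjusted p was under 0.05, with names on most genes chosen by the naming rule. CBS at -2.97 and CTH at 1.92 are the extremes, and no probe of the mitochondrial one-carbon and glycine cleavage genes is past the threshold.

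Genes of most like pattern were found by the root mean square difference of log2 levels over the 6 arrays, each level taken from its own mean. For PHGDH they were CYB5D2 (0.166), FAM174B (0.167), CD34 (0.207) and METTL2A (0.222), where the median over all other named probes was 0.939. For MTHFD2 they were DYNLT3 (0.0350), CTNNA1 (0.0508), TSPAN3 (0.0653) and TADA3 (0.0749), with a median of 0.580.

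With median scaling the median of all probes moved by -0.20 on the log2 scale and by -0.14 when the authors' deposited values were used, and 30.56% and 36.91% of called probes were then higher with DAMTC against 50.19%. Relative to that median, PHGDH differed by -1.47 and -1.42, PSAT1 by -1.55 and -1.50, and MTHFD1L by -1.22 and -1.18. The differences before that subtraction passed the test for these genes under both scalings. MTHFD2 was at 0.22 and 0.28 relative to it, and SHMT1 probe 3 at -0.13 and -0.11.

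**Figure D4:**
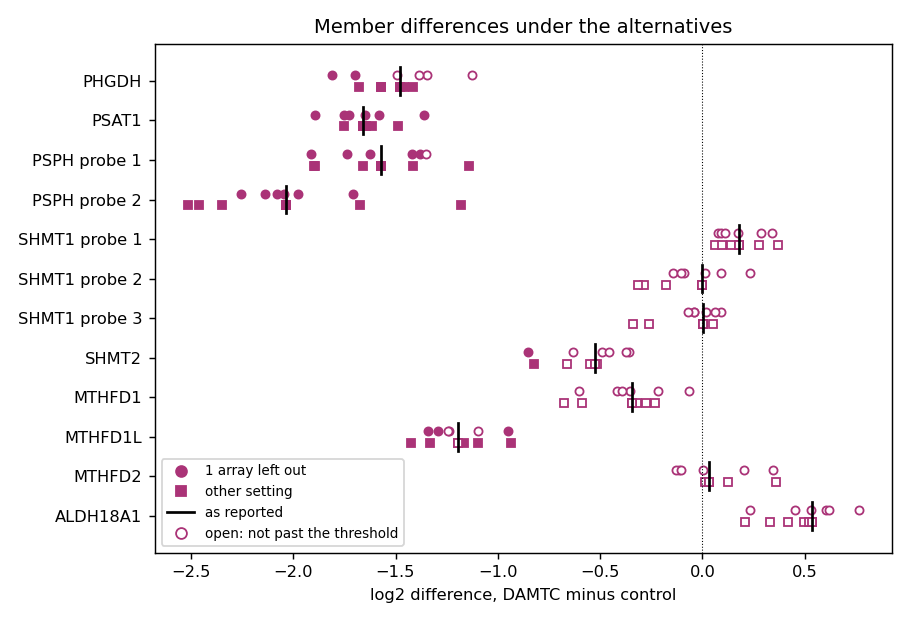
Log2 difference of each tested member probe under the 16 alternatives, with circles for fits that left out 1 array, squares for other settings, open symbols where the adjusted p was 0.05 or more and a black bar at the reported value. PSAT1 and PSPH probe 2 are filled throughout, PSPH probe 1 has an open circle, and PHGDH and MTHFD1L have open circles and an open square each. MTHFD2 and SHMT1 probes 2 and 3 lie on both sides of 0.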

How the data were processed

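RNA of 6 A549 samples was hybridised to Illumina Human-6 bead arrays. Per the file headers the deposited table holds a mean bead intensity per probe, the count of beads, their standard error as a signal on the linear scale and a detection p-value, whose steps are those of 759 negative-control bead types. BeadStudio is named per the submitters' processing notes, with no version. In the series matrix, the deposited intensity was a straight line of the same bead intensity (largest residual 0.0107) with column medians from 8.59 to 10.94, that is, background-subtracted, scaled per array and still on a linear scale.

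From these, nec of limma 3.58.1 (R 4.3.3) corrected the background with an offset of 16, and values were quantile normalized on the log2 scale. Of 48803 probes, 27578 had 1 symbol, 13 several and 21212 are unnamed here. Rows with the same probe ID (1 case) were averaged. The 17009 probes with a detection p under 0.05 on 3 or more arrays entered lmFit and eBayes, each by itself, with Benjamini-Hochberg adjustment over all of them. A list is described by counts and medians. Named genes are all members, up to 4 genes past the threshold per list by size of difference or else the smallest p, and 4 genes of like pattern for PHGDH and MTHFD2. A gene that the rule also names is not reported here. Others were chosen after their values were seen. Members and lists were chosen with earlier results of these data known.

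The alternatives covered background, normalization, deposited values, filters, 1 probe per gene, moderation, array weights, a replicate block and each array left out (the filter kept). The number of arrays limits the precision. On simulated data, in which few probes changed, the fit missed small changes and also many large ones. A probe that did not pass may therefore still differ, and not only by a little. Arrays were not paired by replicate number, since nothing states that equal numbers share a culture or day.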

Additional observations from a re-analysis of the deposited data

How the results depend on the processing

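Of the member differences under the alternatives, 165 of 188 kept their sign and their side of the threshold, 10 lost the call, 2 gained it and 11 changed sign. Among the latter, SHMT1 probe 3 was at -0.34 (median scaling), at -0.26 (deposited values) and from -0.0729 to 0.0887 with 1 array left out, SHMT1 probe 2 from -0.15 to 0.23, and MTHFD2 from -0.13 to 0.34. PHGDH was also lost without a detection filter (adjusted p = 0.0737, more probes tested). Member probes that fell numbered from 2 to 6 with 1 array left out, 2 without DAMTC replicate 1 and 3 without DAMTC replicate 2, and 0 rose in any alternative. Of the other pathway probes, 3 to 13 were higher and 6 to 12 lower with 1 array left out (3 higher without DAMTC replicate 2 or 3), 5 and 14 with median scaling, and 14 and 18 with array weights, and 4 were higher without a filter. Over all probes 1994 rose and 1979 fell, 3348 and 3500 with array weights, 1368 and 3109 with median scaling, and 1191 and 1119 without DAMTC replicate 3. The replicate block left 1185 and 1139, with 5 pathway probes higher and MTHFD1L at adjusted p = 0.0620 in limma. Deviations from the group mean correlated at -0.43, -0.42 and -0.20 between arrays of equal number, which does not settle whether they share a culture. Detected probes differed by -849 between the groups, and by -1005 at a detection p under 0.01. The causes were not tested.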

Other observations

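Several pathway genes outside the naming rule had separate groups without passing the test, as 40.1% of all tested probes had separate groups in either direction, and they were chosen after their values were seen. SLC1A5, the glutamine and neutral amino acid transporter, read 11.39, 12.43 and 12.42 in controls and 11.19, 10.15 and 11.28 with DAMTC, a log2 difference of -1.20 ± 0.40 (adjusted p = 0.0581 in limma). Both probes of ASNS, the asparagine synthetase that ATF4 induces, were lower on every DAMTC array, by -0.81 ± 0.36 and -0.56 ± 0.27 (adjusted p = 0.140 and 0.166). ATIC and ADSL, late enzymes of purine synthesis, differed by -0.78 ± 0.28 (adjusted p = 0.0719) and -0.56 ± 0.22 (0.107), and AHCY, which clears S-adenosylhomocysteine, by 0.56 ± 0.24 (0.121). PRPS1, of the same purine route, differed by 0.69 ± 0.26 (adjusted p = 0.0848 in limma). Further such genes are not named. Of the 63 tested pathway probes, 20 had every DAMTC array lower and 15 every DAMTC array higher, called probes included.

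SPTLC1, a subunit of the enzyme that joins serine to a fatty acid in sphingolipid synthesis, was measured by 5 probes that did not move alike. They ran from -0.52 ± 0.26 to 0.89 ± 0.35 on the log2 scale, both with separate groups, and adjusted p was 0.102 or more.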
